A study of Mus musculus with 4 samples.

Results

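Foxc1, Foxc2, Twist1, Twist2, Prrx1, Prrx2 and Lmx1b are transcription factor genes of the periocular mesenchyme, the connective tissue that surrounds the optic cup. These 7 genes were listed by name as factors of this tissue, with earlier results of these data known, and all 7 were found among the 24062 genes of the count table of E13.5 mouse retinas. RNA of pooled retinas from several littermates had been sequenced in 2 wild type (WT) libraries and 2 Nrf1-CKO libraries, all of a mixed C57BL/6 and 129 strain. In Nrf1-CKO embryos, named Nrf1 f/f;Six3-Cre in the study, the transgene Six3-Cre deletes exon 4 of Nrf1, which encodes nuclear respiratory factor 1, in retinal progenitor cells from the central retina outwards. Six3-Cre is a driver of the neural retina, so the mesenchyme itself is not its labelled target. Whether the WT embryos carried Cre or a floxed allele is not given in the sources used here.

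Periocular mesenchyme comes mostly from cranial neural crest, with a part from head mesoderm, and forms the corneal stroma and endothelium, the drainage tissue of the anterior chamber, the sclera, the stroma of the iris and ciliary body, and the eyelid dermis. Retinoic acid made by the optic cup and surface ectoderm acts on this mesenchyme, and TGF-beta ligands from the lens do so too. Foxc1 and Foxc2 are forkhead factors, Twist1 and Twist2 are basic helix-loop-helix factors of mesenchymal cells, Prrx1 and Prrx2 are paired-related homeodomain factors, and Lmx1b is a LIM-homeodomain factor. Changes in human FOXC1, FOXC2, TWIST1, TWIST2 and LMX1B cause inherited disorders that affect the anterior eye, the eyelids or the skull. The neural retina is not known as their main site of expression, and a dissected retina can carry some of the tissue around it.

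Of the 7 genes, 6 form pairs of close copies, and reads that match both copies of a pair would be lost from or misplaced in counts per gene. The most similar stretch of 100 bases, the read length, was therefore searched in the coding sequences of each pair (GENCODE, GRCm38) and is shown with the bases that differ within the pair in capitals.
Foxc1: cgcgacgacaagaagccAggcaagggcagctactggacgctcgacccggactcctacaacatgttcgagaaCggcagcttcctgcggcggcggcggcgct
Foxc2: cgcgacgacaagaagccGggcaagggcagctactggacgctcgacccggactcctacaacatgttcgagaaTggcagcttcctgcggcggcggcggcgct
Twist1: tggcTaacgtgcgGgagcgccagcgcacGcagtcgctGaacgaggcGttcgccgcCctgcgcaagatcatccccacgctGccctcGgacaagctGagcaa
Twist2: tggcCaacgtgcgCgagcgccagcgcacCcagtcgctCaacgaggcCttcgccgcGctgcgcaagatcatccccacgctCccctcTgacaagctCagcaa
Prrx1: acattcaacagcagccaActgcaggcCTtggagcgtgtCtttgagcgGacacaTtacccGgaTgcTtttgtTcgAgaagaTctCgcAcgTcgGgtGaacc
Prrx2: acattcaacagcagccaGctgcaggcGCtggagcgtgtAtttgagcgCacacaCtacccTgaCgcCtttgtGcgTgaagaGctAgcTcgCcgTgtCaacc
The Foxc1 stretch lies at chr13:31807628-31807727 (plus strand, in exon 1 of 1) and that of Foxc2 at chr8:121117014-121117113 (plus strand, exon 1 of 1). They were identical at 98 of 100 bases, and the longest run without a difference was 53 bases. The Twist1 stretch, chr12:33958324-33958423, and the Twist2 stretch, chr1:91801835-91801934, lie in exon 1 of 2 on the plus strand and were identical at 91 bases, with a longest run of 23. For Prrx1, chr1:163261860-163261959 on the minus strand, and Prrx2, chr2:30878472-30878571 on the plus strand, both in exon 2 of 4, the stretch was identical at 83 bases and the longest run was 19. Thus no read of 100 bases within these coding sequences matched both copies without a mismatch, although Foxc1 and Foxc2 came within 2 bases of it. Untranslated regions were not compared.

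The genes of the members differ in structure. Foxc1 (chromosome 13, 31806633 to 31812476) and Foxc2 (chromosome 8, 121116171 to 121118895) have a single exon each. Twist1 (chromosome 12, 33957671 to 33959829) and Twist2 (chromosome 1, 91801461 to 91848028) have up to 2 exons. Prrx1 (chromosome 1, 163245119 to 163313710) and Lmx1b (chromosome 2, 33560965 to 33640511) lie on the minus strand and Prrx2 (chromosome 2, 30834972 to 30881251) on the plus strand. In GENCODE, the antisense gene Gm29100 shares 1477 of the 3174 exonic bases of Twist2. Whether the counting used strand is not given in the sources used here. Reads of Gm29100 may therefore be among those of Twist2, or reads of the shared bases may be missing from them. No other member shared exonic bases with another annotated gene.

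The 4 libraries held 74577660 to 85933945 reads counted on genes, and 15762 genes that passed a filter on low counts were tested with edgeR's quasi-likelihood test. Genes that changed 1.4-fold or more with an adjusted p no higher than 0.2 were called. These are the thresholds of the study, which used another test (Cuffdiff), so the called genes are not its gene lists. Levels are given in CPM, the usual library-size-scaled counts, after TMM scaling. Nrf1 itself had 9052 and 7789 reads in the WT and 8594 and 8284 reads in the Nrf1-CKO libraries (log2 fold change -0.03 ± 0.07, where SE is the standard error of the fit), and since only exon 4 is deleted, a count over the whole gene does not check the genotype. Markers of retinal progenitors, which define the labelled tissue at this age, were abundant, with a summed level of 10 genes between 5596 and 7489 CPM in the 4 libraries. The labels do not say whether the libraries of a genotype came from separate litters, so p-values measure only the spread between these libraries.

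All 7 members passed the filter, and 4 of them rose in Nrf1-CKO libraries: Foxc1, Foxc2, Prrx1 and Prrx2. None fell, and all 7 log2 fold changes were above 0. At an unadjusted p below 0.05, 3 members were higher and 0 lower. The share of all tested genes at this unadjusted limit was not counted, so such counts, also those of the lists below, have no comparison. The 4 of 7 (57.1%) stand beside 12.8% of all tested genes that were called higher. The median log2 fold change of the 7 genes was 0.83, beside 0.00073 for all tested genes. It was 0.48 without WT replicate 2 and 0.28 with limma on the deposited log2 values. Both Nrf1-CKO libraries lay above both WT libraries for 5 members, Lmx1b being the fifth, while this held for 30.9% of all tested genes. The reverse, both Nrf1-CKO libraries below both WT libraries, held for 0 members and 31.6% of all tested genes. The levels of Twist1 and Twist2 overlapped between the genotypes. Fewer members were called with any 1 library left out, and fewer genes were called higher over the whole table in these fits too. The log2 fold change of Foxc1 stayed between 0.85 and 1.03 in these fits. The lowest values were 0.39 for Prrx1 and 0.59 for Prrx2, both without Nrf1-CKO replicate 1. In bulk RNA, more cells of a type in a pool and more RNA per cell cannot be told apart.

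**Figure D1:**
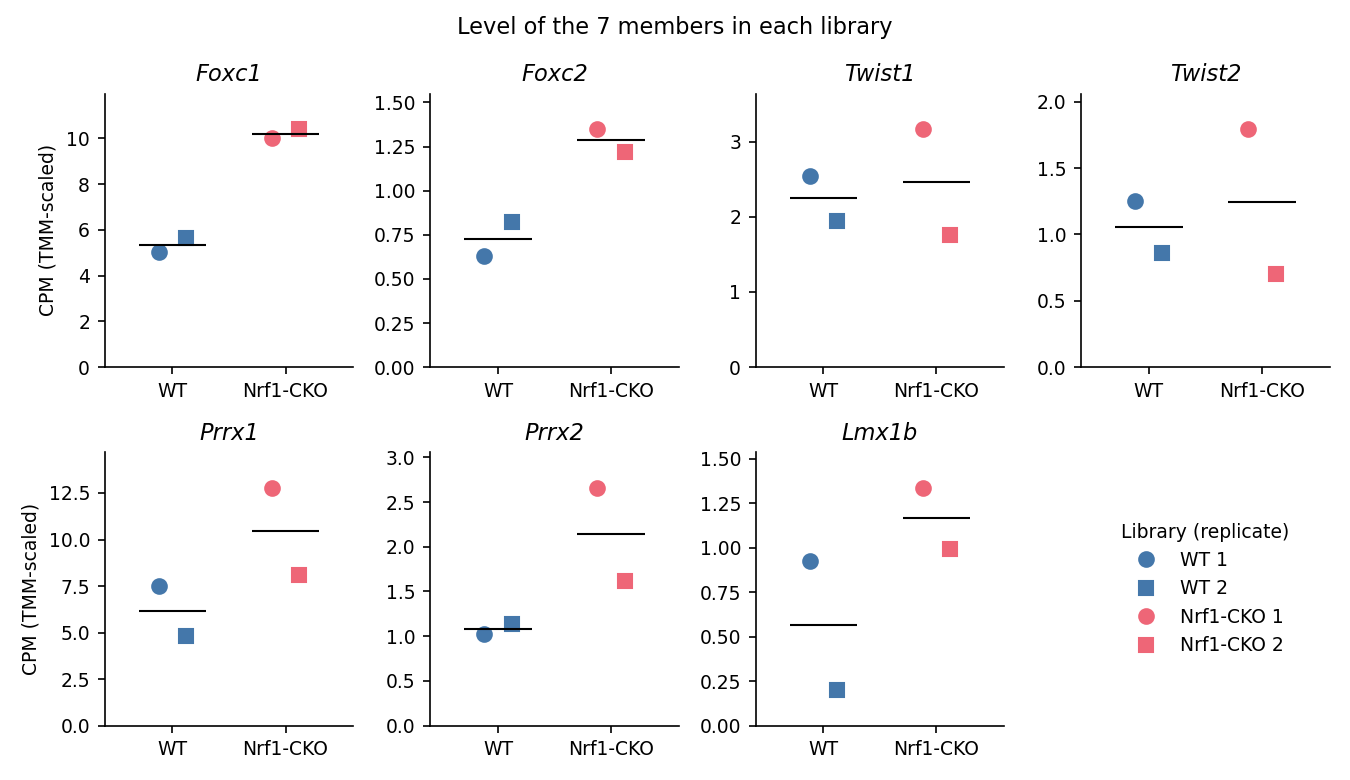
Level of each of the 7 members in CPM (TMM-scaled, linear axis from 0) in the 2 WT and 2 Nrf1-CKO libraries. Circles are replicate 1, squares are replicate 2 and lines are group means. Foxc1 and Foxc2 were separated by genotype with close replicates, whereas replicate 1 was above replicate 2 in both genotypes for Twist1, Twist2, Prrx1 and Lmx1b.

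Foxc1, which is required for the anterior segment and for mesenchymal cells of the cornea, had 439 and 419 reads in the WT and 830 and 860 reads in the Nrf1-CKO libraries. This corresponded to 5.33 ± 0.450 CPM in WT and 10.2 ± 0.285 CPM in Nrf1-CKO (SD, n = 2). The genotypes were far apart relative to their replicates, and the log2 fold change was 0.94 (± 0.15 SE, edgeR adjusted p = 0.00226), a 1.91-fold increase. Foxc1 was the only member with an adjusted p below 0.05, and 9.17% of all tested genes were higher by at least 1.4-fold with an adjusted p of 0.05 or less. It was called in all 14 alternative analyses, with log2 fold changes between 0.56 and 1.03.

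Foxc2, the close copy of Foxc1 that also acts in lymphatic vessels, had fewer reads, 55 and 61 in WT and 112 and 101 in Nrf1-CKO libraries. Its level was 0.725 ± 0.137 CPM in WT and 1.28 ± 0.0901 CPM in Nrf1-CKO retinas. Both Nrf1-CKO libraries were higher than both WT libraries, and the log2 fold change of 0.83 (± 0.40 SE, edgeR adjusted p = 0.179) was near that of Foxc1. Its unadjusted p was 0.0681. At this depth the 95% interval of the log2 fold change ran from -0.08 to 1.73, and the call was lost when any library was left out (adjusted p between 0.217 and 0.428) and in DESeq2 (adjusted p = 0.224, and from 0.130 to 0.648 over all 14 alternatives).

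Prrx1, a homeodomain factor of limb and craniofacial mesenchyme, had the highest mean level of the members over all libraries, 8.31 CPM. It had 657 and 359 reads in WT and 1062 and 671 reads in Nrf1-CKO libraries. Foxc1 had more reads than Prrx1 in replicate 2 of both genotypes. The libraries spread widely within each genotype, at 7.50 and 4.84 CPM in WT and 12.8 and 8.11 CPM in Nrf1-CKO, and the lower Nrf1-CKO library lay just above the higher WT library. The log2 fold change was 0.76 (± 0.26 SE, edgeR adjusted p = 0.0674). The call ended without WT replicate 2, where the log2 fold change was 0.48 (adjusted p = 0.317), and without Nrf1-CKO replicate 1, where it was 0.39 (adjusted p = 0.272).

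Prrx2, its close copy, acts with Prrx1 in craniofacial mesenchyme. It had 90 and 84 reads in WT and 221 and 134 reads in Nrf1-CKO libraries, so the WT libraries were close to each other and the Nrf1-CKO libraries were not. The level rose from 1.08 ± 0.0741 to 2.14 ± 0.736 CPM (SD, n = 2), a log2 fold change of 0.99 (± 0.35 SE, edgeR adjusted p = 0.0802). Without Nrf1-CKO replicate 1 the log2 fold change was 0.59 and not called (adjusted p = 0.453), and without WT replicate 1 it was 0.92 and not called (adjusted p = 0.230).

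Twist1, which keeps cranial mesenchyme in an undifferentiated state and acts in the skull sutures, had 223 and 144 reads in WT and 263 and 145 reads in Nrf1-CKO libraries. The lowest level, 1.75 CPM, and the highest, 3.17 CPM, were both in Nrf1-CKO libraries, with the WT libraries at 2.55 and 1.94 CPM between them. No change was detectable, with a log2 fold change of 0.13 (95% interval -0.64 to 0.90, adjusted p = 0.828 from edgeR). Its sign turned without WT replicate 2 (-0.05) and without Nrf1-CKO replicate 1 (-0.36).

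Twist2, the dermal relative of Twist1, showed the same order of libraries, with 1.26 and 0.863 CPM in WT and 1.79 and 0.701 CPM in Nrf1-CKO libraries, from 110, 64, 149 and 58 reads. Its log2 fold change was 0.23 (95% interval -0.89 to 1.36, adjusted p = 0.786 from edgeR) and was also of the opposite sign without WT replicate 2 (-0.0085) or Nrf1-CKO replicate 1 (-0.60). The difference between the log2 fold changes of the Twist genes and Foxc1 was not tested.

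Lmx1b acts in the corneal stroma and drainage tissue as well as in the dorsal limb. Its WT libraries had the widest ratio between replicates of a genotype among the 7 genes. Its WT libraries held 81 and 15 reads, with exact Poisson 95% intervals of 64.3 to 101 and 8.40 to 24.7 that cover counting error only. The Nrf1-CKO libraries held 111 and 82 reads, so that the lower of them, at 0.991 CPM, lay close to WT replicate 1 at 0.925 CPM. The log2 fold change of 1.03 (± 0.64 SE, edgeR adjusted p = 0.295) was the highest point estimate of the members but did not pass the threshold. It was 2.52 and called without WT replicate 1 (adjusted p = 0.0352), and 0.33 without WT replicate 2 (adjusted p = 0.707), with adjusted p between 0.0352 and 0.850 over 14 alternatives.

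Per length, every member had a mean below 2 RPKM in both genotypes. In this unit, CPM divided by the kilobases of annotated exons, Twist1 was highest in WT with 1.38 ± 0.263, followed by Foxc1 with 0.912 ± 0.0770, Prrx1 with 0.558 ± 0.170, Prrx2 with 0.551 ± 0.0378, Twist2 with 0.334 ± 0.0876, Foxc2 with 0.266 ± 0.0504 and Lmx1b with 0.115 ± 0.105 (SD, n = 2). The libraries of Prrx1 and Prrx2 overlapped, as did those of Twist2 and Foxc2, while the other neighbours in this order were apart. In Nrf1-CKO libraries, Foxc1 came first with 1.74 ± 0.0488 RPKM, followed by Twist1 with 1.51 ± 0.614, Prrx2 with 1.09 ± 0.375, Prrx1 with 0.944 ± 0.299, Foxc2 with 0.471 ± 0.0331, Twist2 with 0.393 ± 0.243 and Lmx1b with 0.238, from 0.274 and 0.203 in its libraries. There, every neighbouring pair overlapped except Prrx1 and Foxc2, so most of this order was not larger than the spread between libraries. Lengths were those of all annotated exons, 11066 bases for Prrx1, which lowers its RPKM if shorter transcripts were used.

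Within the pairs of close copies, the balance of levels per length was similar in all libraries for the forkhead genes. Foxc1 made up 78.8% and 76.2% of the Foxc pair in WT and 77.6% and 79.9% in Nrf1-CKO libraries. Twist1 made up 79.8% and 81.4% of the Twist pair in WT and 77.5% and 83.0% in Nrf1-CKO. Prrx1 and Prrx2 were more even, with Prrx1 at 56.4% and 43.1% in WT and 46.0% and 47.0% in Nrf1-CKO libraries. In all 3 pairs the genotypes overlapped in this share.

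**Figure D2:**
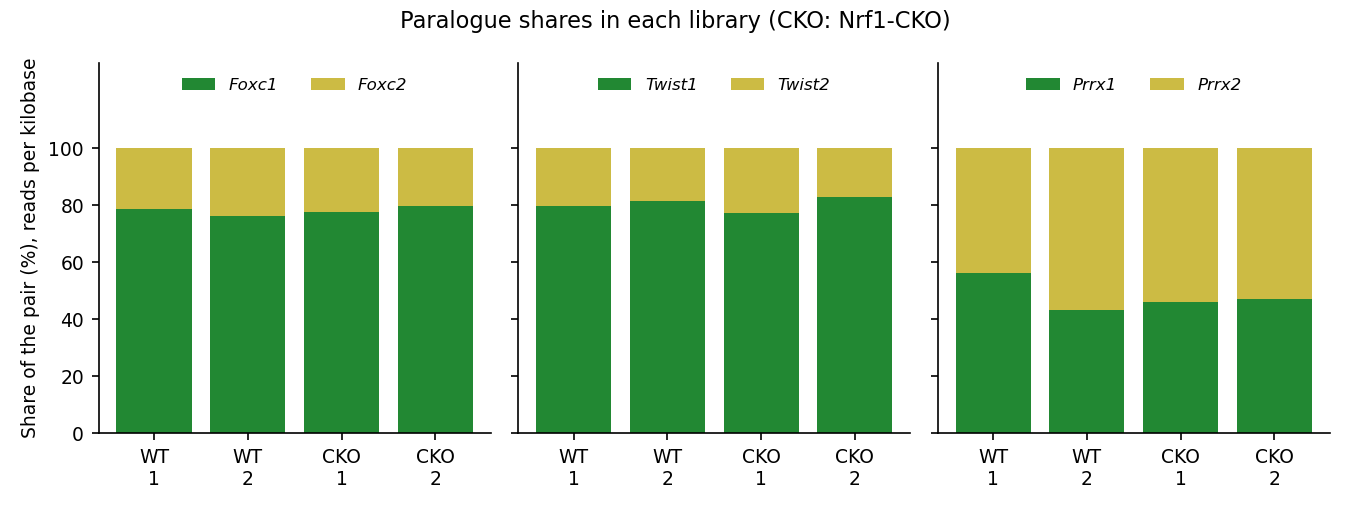
Share of each pair of close copies in percent, from reads per kilobase of exon, in each of the 4 libraries (CKO stands for Nrf1-CKO, and the number is the replicate). The first gene of the pair is at the bottom of each bar. Foxc1 lay between 76.2% and 79.9% and Twist1 between 77.5% and 83.0%, whereas Prrx1 and Prrx2 took similar parts.

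The members did not vary alike between libraries of a genotype. Foxc1, Foxc2 and Prrx2 were slightly lower in WT replicate 1 than in WT replicate 2, whereas Twist1, Twist2, Prrx1 and Lmx1b were higher in replicate 1 than in replicate 2 of both genotypes. The latter pattern was found in 4 of 7 members and in 27.1% of all tested genes. It was found in 6 of 21 tested other regulators of periocular mesenchyme in 14 of 18 tested genes for mesenchymal matrix and receptors, in 5 of 5 skeletal muscle genes, in 4 of 7 genes of surface ectoderm and cornea, in 4 of 5 of neural crest and Schwann cell precursors, in 4 of 8 of endothelium, in 5 of 15 of the TGF-beta pathway and in 2 of 20 of the retinoic acid pathway. It was found in 2 of 7 genes of pigment epithelium, in 1 of 2 of cartilage and bone, in 1 of 4 of erythroid cells, in 1 of 9 of macrophages and microglia, in 1 of 6 of ciliary margin, and in none of 8 lens, 6 pericyte, 10 progenitor and 6 retinal ganglion cell genes. On a log2 scale centred on its mean over the 4 libraries, the average of the 7 genes was -0.15 and -0.56 in WT and 0.64 and 0.07 in Nrf1-CKO. Prrx1 was the member closest to this average, and Lmx1b the farthest from it.

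Among 11324 other genes with a mean of at least 5 CPM, those with the profile most like this average over the 4 libraries were Col14a1, Clstn2, Elf4, Egln3 and Hmga2, with Euclidean distances between 0.118 and 0.157. Col14a1 had 4.36 and 3.45 CPM in WT and 7.45 and 4.77 CPM in Nrf1-CKO libraries. Clstn2 had 5.23 and 3.99 CPM in WT and 8.25 and 5.84 CPM in Nrf1-CKO. Elf4 had 6.54 and 5.07 CPM in WT and 10.2 and 7.60 CPM in Nrf1-CKO. Egln3 had 4.34 and 3.37 CPM in WT and 7.21 and 5.57 CPM in Nrf1-CKO. Hmga2 had 44.6 and 31.8 CPM in WT and 78.0 and 57.2 CPM in Nrf1-CKO libraries. With 4 libraries, many genes can share such a profile, and the distances describe these libraries only.

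Other regulators of periocular and craniofacial mesenchyme were examined as a list of 22 genes, of which 21 passed the filter. In Nrf1-CKO libraries, 12 of them (57.1%) were called higher and none was called lower (at an unadjusted p below 0.05, 12 were higher and 1, Zeb1, was lower), beside 12.8% higher and 8.04% lower over all tested genes. Their median log2 fold change was 1.04. Both Nrf1-CKO libraries lay above both WT libraries for 16 of the 21 genes, beside 30.9% of all tested genes. They lay below both WT libraries for 2 of the 21, beside 31.6% of all tested genes. Fewer of these genes were called higher with any 1 library left out, as was true over the whole table.

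Among the paired-like homeodomain genes of this list, Alx4, a craniofacial factor, rose from 375 and 109 reads to 716 and 498 reads (log2 fold change 1.34, adjusted p = 0.0469). Alx1 had a log2 fold change of 0.70 and did not pass the threshold (adjusted p = 0.289). Pitx1, with 14 and 19 reads in WT and 62 and 36 reads in Nrf1-CKO, rose by a log2 fold change of 1.51.

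The muscle-segment homeobox gene Msx2 had the highest fold change of the list, from 108 and 77 reads in WT to 338 and 402 in Nrf1-CKO libraries (log2 fold change 1.97, standard error 0.26, adjusted p = 0.000856 from edgeR). Msx1 rose with a log2 fold change of 1.14 (adjusted p = 0.00402). Both genes are also expressed in the ciliary margin of the retina, whose list of 6 marker genes rose in full (6 of 6). This list shares a called gene with that of pigment epithelium. The zinc finger genes Snai1 and Snai2, which act in neural crest and mesenchymal cells, rose with log2 fold changes of 1.56 and 0.95. Tbx18, a T-box gene of head mesenchyme, rose with a log2 fold change of 1.43 (adjusted p = 0.0307). Meox1, Osr1 and Foxf2, each below 1 CPM on average, rose with log2 fold changes of 1.70, 1.68 and 1.66. The calls of Msx1, Msx2, Alx4, Snai2 and Tbx18 held with any library left out, but the log2 fold change of Alx4 was 2.32 without WT replicate 1 and 0.78 without WT replicate 2. Those of Meox1 and Snai1 ended without WT replicate 1 (adjusted p = 0.218 and 0.257) or Nrf1-CKO replicate 1 (0.384 and 0.219). Osr1 was called only without Nrf1-CKO replicate 2, Foxf2 only without Nrf1-CKO replicate 1, and Pitx1 was not called with any of the 4 libraries left out (adjusted p between 0.208 and 0.557).

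Six2, Tbx15, Foxl2 and Osr2 had log2 fold changes of 1.04, 0.92, 0.73 and 0.43 that did not pass the threshold. Zeb1 and Zeb2, which are abundant in neural cells, had log2 fold changes of -0.21 and -0.12 and were not called. They supplied most reads of the list, at 124 and 242 CPM, so that the summed level of the list, from 386 to 411 CPM in the 4 libraries, did not follow its other genes. Foxf1 and Meox2 had values of -0.65 and 0.05, also not called, and Tcf21 had at most 2 reads in any library.

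**Figure D3:**
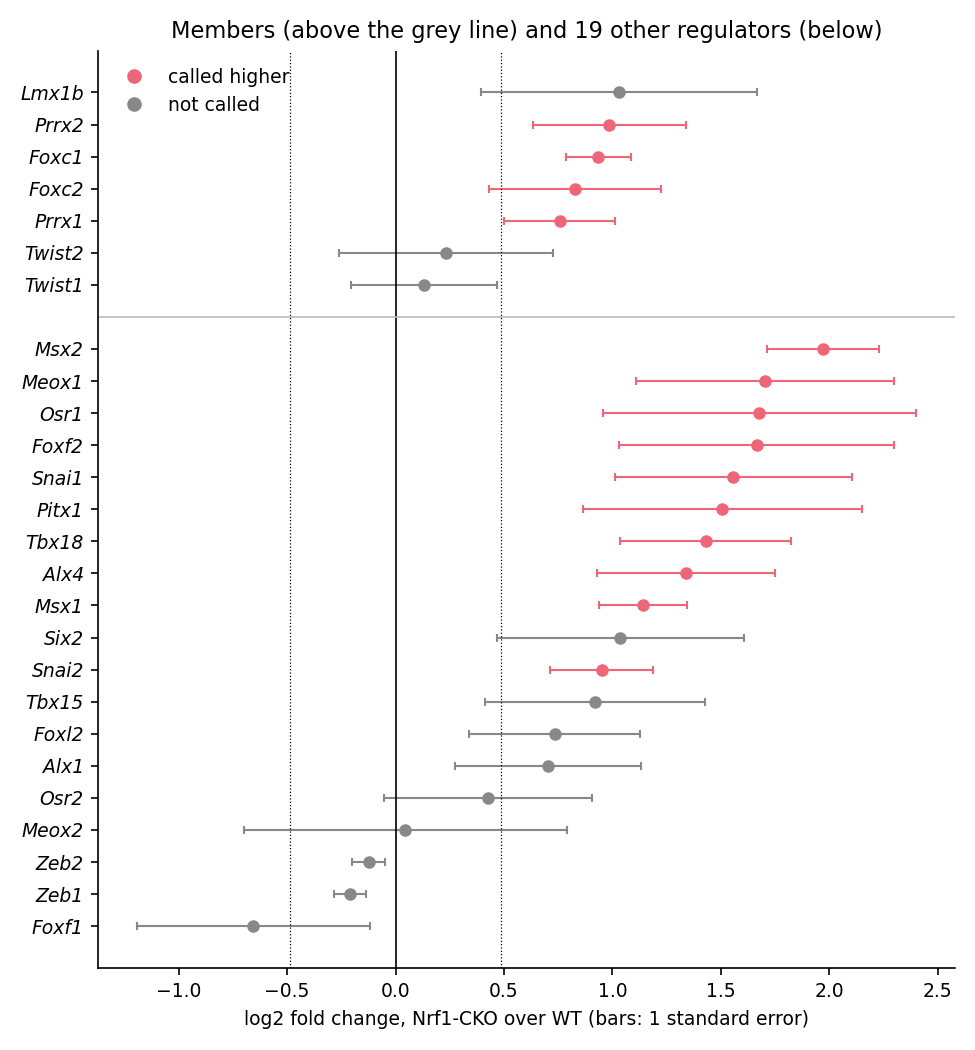
Log2 fold change of Nrf1-CKO over WT with 1 standard error for the 7 members (above the grey line) and 19 of the 21 tested other regulators of mesenchyme (below it). Red marks genes called higher, grey marks genes not called, and dotted lines mark a 1.4-fold change. Msx2 lies highest at 1.97, and Twist1 and Twist2 lie near 0.

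Matrix and receptor genes of mesenchymal cells were called higher in 9 of 18 tested genes and lower in none (13 and 0 at an unadjusted p below 0.05), with a median log2 fold change of 0.67. Pdgfra, a growth factor receptor of mesenchymal cells that is also found on glial precursors, changed most, from 10.5 ± 0.402 CPM in WT to 40.1 ± 8.64 CPM in Nrf1-CKO libraries (SD, n = 2), a log2 fold change of 1.93. Among the most abundant genes of the list, Fbn1, Col5a1 and Col3a1 rose with log2 fold changes of 0.85, 0.79 and 0.99, and Fstl1 had a log2 fold change of 0.34, below the threshold. The summed level of the list was 1002 and 803 CPM in WT and 1411 and 1327 CPM in Nrf1-CKO libraries. That of the 7 members was 18.9 and 15.5 CPM in WT and 33.1 and 24.8 CPM in Nrf1-CKO, with the same order of the 4 libraries. The summed levels of the TGF-beta pathway, skeletal muscle and surface ectoderm lists had this order too.

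Of 20 genes around retinoic acid, the signal that acts on this mesenchyme, 9 rose and 3 fell in Nrf1-CKO libraries. The enzymes Aldh1a1 and Aldh1a3, which make retinoic acid in the retina, rose from 95897 and 78299 to 176665 and 193972 reads (log2 fold change 1.06) and by a log2 fold change of 0.65. The call of Aldh1a3 ended without Nrf1-CKO replicate 2, where its log2 fold change of 0.48 lay just under the 1.4-fold limit, and when tested against a 1.4-fold change with glmTreat (adjusted p = 0.229). Crabp1, a retinoic acid binding protein found in retinal ganglion cells and neural crest, fell by 1.76 on the log2 scale and was the gene of this list that changed most. Crabp2, with a log2 fold change of -0.15, was not called.

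Of 15 tested genes of the TGF-beta pathway, 8 rose and 1 fell. Tgfbi, a matrix protein of the cornea that TGF-beta induces and that macrophages also make, rose from 284 and 247 reads to 1643 and 2128 reads (log2 fold change 2.79, standard error 0.16). Ltbp1, which holds latent TGF-beta in the matrix, rose with a log2 fold change of 1.13, and Smad2, a transducer of the signal, fell by 0.61 on the log2 scale. Tgfbr1 and Skil, at 0.05 and -0.22, were not called.

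Markers of other cells around the retina moved with the genotype too. The 8 lens genes were all called higher, and their summed level was 125 to 346 CPM in WT and 2995 to 7251 CPM in Nrf1-CKO libraries. The 5 tested skeletal muscle genes were all called higher, with sums of 2.43 to 5.85 CPM in WT and 9.49 to 39.0 CPM in Nrf1-CKO, the highest in Nrf1-CKO replicate 1. Without that library, 2 muscle genes were called, and 3 without WT replicate 2. Markers of surface ectoderm and cornea were called higher in 6 of 7 genes, with sums of 16.2 to 20.1 CPM in WT and 44.5 to 55.9 CPM in Nrf1-CKO, and 2 were called without WT replicate 2 or without Nrf1-CKO replicate 1.

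Macrophage and microglia genes were called higher in 9 of 9 cases, with sums of 75.5 to 82.6 CPM in WT and 251 to 304 CPM in Nrf1-CKO. Pericyte genes were called higher in 5 of 6 cases (184 to 193 CPM in WT and 314 to 315 CPM in Nrf1-CKO), pigment epithelium genes in 5 of 7 (164 to 227 and 413 to 439 CPM) and endothelial genes in 6 of 8, with 1 lower (270 to 273 and 282 to 290 CPM). The gene called lower was Kdr, named here after its values were seen, which had the highest level of the list in each library, and the other 7 genes summed to 62.0 to 70.1 CPM in WT and 145 to 146 CPM in Nrf1-CKO. Neural crest and Schwann cell precursor genes were called higher in 2 of 5 (7.90 to 8.55 and 8.35 to 12.4 CPM), erythroid genes in 2 of 4 (480 to 566 and 623 to 628 CPM) and cartilage and bone genes in 0 of 2 tested, also at an unadjusted p below 0.05 (1.19 to 1.28 and 1.41 to 1.91 CPM). Of the neural crest genes, 1 was called without WT replicate 2 or Nrf1-CKO replicate 1, and of the erythroid genes 0 without WT replicate 1 and 1 without any other library. The 6 retinal ganglion cell genes were all called lower (1051 to 1227 and 313 to 405 CPM), and of 10 progenitor genes Ccnd1 was called lower (sums of 6973 to 7489 and 5596 to 6199 CPM). No defining marker of these lists was at 0 in every library except Hba-a1 and Hbb-bt, 2 of the 6 erythroid genes, and the pigment epithelium marker Rpe65 had 4 reads in 1 WT library and 0 in the others. The part of these cells in the levels of the 7 members was not tested.

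**Figure D4:**
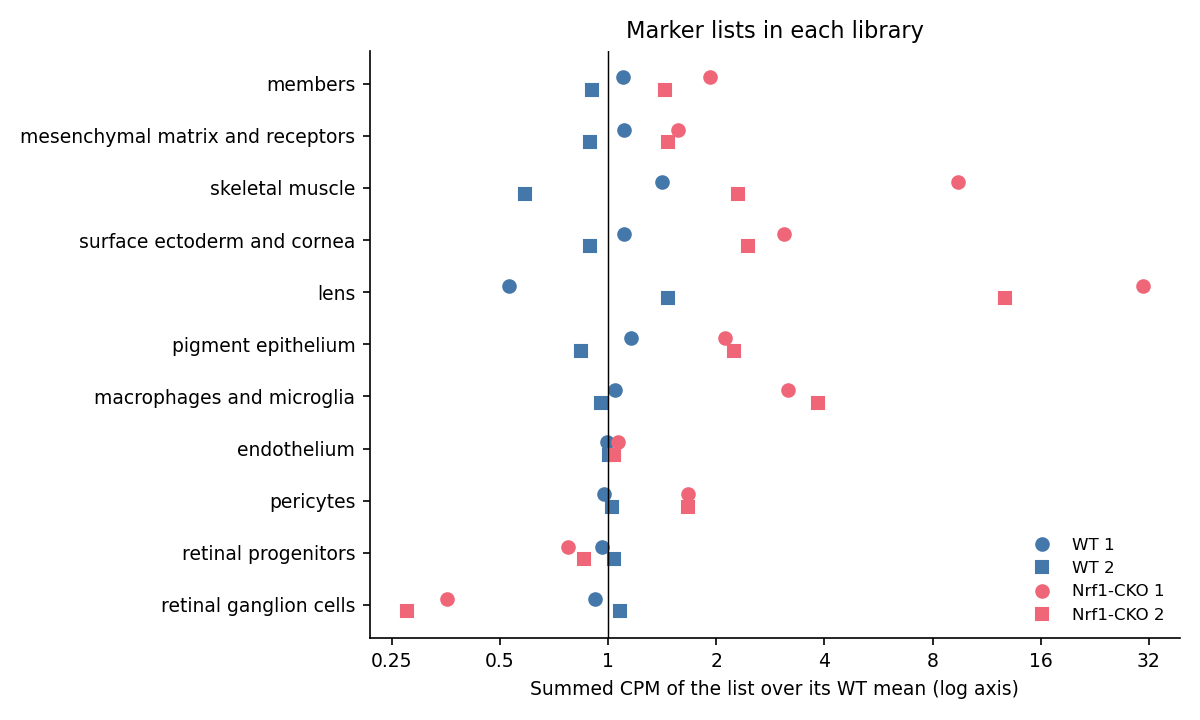
Summed CPM of marker lists in each library, divided by the WT mean of the list (log axis). Circles are replicate 1 and squares are replicate 2. The 7 members reached 1.93 and 1.44 in Nrf1-CKO libraries, skeletal muscle genes 9.43 and 2.29, and lens genes 30.8 and 12.7.

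Because the deleted factor is itself a DNA-binding protein, the promoters of the members (250 bases before to 50 after the RefSeq start, GRCm38.p6) were searched on both strands for the NRF1 motif, a palindrome of 10 bases. The table used here holds 6 of the 7 promoters. The exact palindrome was in none of the 6 and in 0.971% of all 32851 promoters, and with 1 of its central bases left open it was in none of the 6 and in 4.60%. No match says only that these letters are not in this window. The 250 bases upstream of Foxc1, a GC-rich promoter, and of Prrx1, with the lowest GC content of these 6, are shown with CG in capitals.
Foxc1 (chr13:31806396-31806645, plus strand): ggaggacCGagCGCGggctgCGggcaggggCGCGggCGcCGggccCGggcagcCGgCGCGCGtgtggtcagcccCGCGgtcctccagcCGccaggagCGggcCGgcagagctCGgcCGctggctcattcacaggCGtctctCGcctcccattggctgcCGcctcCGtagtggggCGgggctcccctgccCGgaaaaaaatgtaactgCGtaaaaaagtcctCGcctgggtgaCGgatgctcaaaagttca
Prrx1 (chr1:163313651-163313900, minus strand): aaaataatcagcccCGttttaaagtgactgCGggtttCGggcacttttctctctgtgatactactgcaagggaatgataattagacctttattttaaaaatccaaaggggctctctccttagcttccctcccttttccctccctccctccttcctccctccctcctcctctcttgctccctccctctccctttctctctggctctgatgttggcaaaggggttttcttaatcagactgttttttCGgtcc
The Foxc1 stretch holds 29 CG and that of Prrx1 holds 4. Over the whole promoter window, the GC content was 67.3% for Foxc1, 70.3% for Prrx2, 66.0% for Twist1, 65.7% for Lmx1b and 64.7% for Twist2, against 47.7% for Prrx1 and a median of 52.7% over all promoters. Thus the GC-rich promoters included those of called genes (Foxc1, Prrx2) and of genes not called (Twist1, Twist2, Lmx1b), and the called Prrx1 lay below the median.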

How the data were processed

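Retinal RNA of E13.5 embryos was sequenced in 2 WT and 2 Nrf1-CKO libraries. TopHat alignments to mm10 were turned into raw counts with HTSeq by the authors, who deposited them. The annotation release is not given in the sources used here. They also deposited normalized values on a log2 scale, whose normalization is not given. The sample records also list DESeq and limma among the processing tools. The header names Mut and Ctrl are set off from the value columns by blank cells and were assigned in order to the Nrf1-CKO and WT samples of the same number. The 5 HTSeq summary rows, 74.0% to 75.0% of all entries, were left out. Alignments without a unique position made up 54.6% to 58.0% of all entries.

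Counts of 24062 genes were filtered with filterByExpr (minimum count 10), scaled with TMM and tested over 15762 genes with the quasi-likelihood test of edgeR 4.0.16 (R 4.3.3), without covariates and with Benjamini-Hochberg adjustment. The study's Cuffdiff step needs aligned reads and was not repeated. Replicates were not duplicates of 1 library: chi-square divided by genes was 42.0 between the WT and 51.5 between the Nrf1-CKO libraries. Log2 CPM used a prior count of 2. The test was also run on simulated counts with known changes. Alternatives used DESeq2 1.42.0, other scalings, filters and thresholds, limma 3.58.1 on the deposited log2 values, the replicate number as a block, and each library left out. Gene models were taken from GENCODE M21.

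The members and gene lists were chosen with earlier results of these data known. Some genes are counted in their lists but not reported here by name. Named were the members, the other regulators, and of each pathway list the 4 genes with the highest CPM and the called gene with the largest change. Genes of like profile were the 5 nearest by Euclidean distance of centred log2 CPM.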

Additional observations from a re-analysis of the deposited data

How the results depend on the processing

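At an adjusted p of at most 0.05, 1 member (Foxc1) and 5 of the other mesenchymal regulators were called higher at the same 1.4-fold limit, beside 9.17% of all tested genes. With glmTreat, which tests against a 1.4-fold change, 1188 genes were called higher and 743 lower, among them 1 member and 5 other regulators. With limma on the deposited log2 values, 945 genes were called higher and 723 lower, among them 1 member and 3 other regulators, and the median of the members was 0.28. Foxc1 had a log2 fold change of 0.56 there and Foxc2 of 0.21. The cause was not tested. No member was called lower in any alternative.

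With each library left out in turn, 1 to 3 members and 6 to 10 other regulators were called higher. These fits leave 1 library in a group, which is assumed to vary like the other genotype. The log2 fold change ranged from -0.36 to 0.49 for Twist1, -0.60 to 0.75 for Twist2, -0.18 to 1.09 for Osr2, -1.47 to 0.77 for Meox2, -1.12 to 0.034 for Foxf1 and -0.014 to 0.12 for Tgfbr1.

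With the replicate number as a block, Foxc2 was no longer called (adjusted p = 0.216), Lmx1b was called (log2 fold change 1.31, adjusted p = 0.112) and Meox2 turned to -0.26. The log2 fold change of Meox2 was -0.024 on the deposited values. Over all genes, the deviations of libraries with the same number had a correlation of -0.0025, and the labels name nothing that these libraries share. In some gene lists replicate 1 was above replicate 2 in both genotypes, as in 14 of 18 matrix genes, and whether same-numbered libraries shared a dissection or batch was not tested. Counts below 100 reads in at least 2 libraries limit the precision for Foxc2, Twist2, Prrx2 and Lmx1b.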
